A study of Triticum aestivum with 36 samples.

Results

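Developing seed of the Indian bread wheat varieties Lok1 and Sonalika was compared at 14 days after anthesis (DAA), the mid stage of seed development, when starch and storage proteins are being laid down in the endosperm. The comparison holds 6 of the 36 arrays of the series, 3 of Lok1 and 3 of Sonalika, chosen by their titles, and all 61179 probe sets of the Affymetrix Wheat Genome Array other than the 111 controls. Lok1 is known for good and Sonalika for poor chapatti, an unleavened flat bread. Both varieties were field grown in 3 replications, with no treatment given in the labels, at the same farm in the same season. The main spikes were tagged on the first day of anthesis, and each array measured RNA of whole caryopses from the central part of such spikes, so that endosperm, embryo and the green outer layers contributed together, and fewer cells of a type and less RNA per cell could not be told apart. The 2 varieties differ in many traits beside chapatti quality, and the design does not separate these.

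Wheat flour takes its dough strength from gluten, which is made of the gliadins and the high and low molecular weight glutenins of the starchy endosperm. Its grain texture depends on the puroindolines, small lipid-binding proteins at the surface of the starch granules, and its amylose content on granule-bound starch synthase I (GBSS I), the waxy protein. Bread wheat carries related copies of most genes in its 3 subgenomes, and a probe set made for 1 copy may also bind RNA of the others.

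Values are the authors' log2 expression, centred on the median of each probe set over the 36 arrays, so a value of 0 is that median, and only differences between arrays at the same probe set are read, never the level of a probe set against that of another. A difference is given as Lok1 minus Sonalika on the log2 scale with its standard error (SE), and a probe set is called past the test where the limma p-value, adjusted by Benjamini-Hochberg over the 61179 probe sets, is below 0.05. Alleles of the varieties that differ at the probes' own bases would change these values as a change of transcript level does, and the 2 cannot be told apart here.

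The 6 arrays were first set against their labels. They were placed on the way of C306, another variety of the series, from 7 to 14 DAA (0 to 1) over 1491 probe sets that change between these stages, and the Lok1 arrays lay at 1.13 to 1.23 and the Sonalika arrays at 1.18 to 1.21. On the way from 14 to 28 DAA (1487 probe sets) they lay at 0.27 to 0.42 and 0.21 to 0.36. The ranges of both groups overlapped on both scales. Over the 383 probe sets that were past the test and at least 10-fold apart between the varieties at 28 DAA, each Lok1 14 DAA array was nearer to the Lok1 28 DAA mean at 121, 129 and 126 probe sets, and each Sonalika 14 DAA array at 29, 20 and 18. The median position of all 6 arrays on that scale, from -0.15 to 0.06 with Sonalika 28 DAA at 0 and Lok1 28 DAA at 1, lay near Sonalika for both groups. The labels of the arrays titled WH291 14 DAA and Lok1 7 DAA are in doubt. At 129 probe sets at least 10-fold apart at 14 DAA (below), the WH291 14 DAA mean was nearer to Lok1 than to Sonalika at 119. WH291 7 DAA (against the 14 DAA means) was so at 63 and WH291 28 DAA (against the 28 DAA means) at 58. The mean labelled Lok1 7 DAA was nearer to Lok1 14 DAA at 47 of them, and the Sonalika 7 DAA mean at 14. The counts for 7 DAA means also take in differences between the stages, and the shares over all probe sets were not counted. At heat stress transcription factor A-9 (Ta.5129.2.A1_a_at), where Lok1 had means of -2.49 at 14 DAA and -2.32 at 28 DAA, the mean labelled Lok1 7 DAA was 2.39. Other probe sets went the other way. This mean was 6.65 at Ta.6179.1.S1_at (Lok1 8.21 and 9.43 at 14 and 28 DAA) and -7.08 at Ta.1944.1.S1_at (Lok1 -7.44 and -6.98), where Sonalika 7 DAA had -0.10 and 0.08. These 6 doubted arrays enter the test at 14 DAA only through the estimate of the spread, and counts without them are given.

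A total of 1576 probe sets (2.58% of those tested) differed between Lok1 and Sonalika at 14 DAA, of which 751 (1.23%) were higher in Lok1 and 825 (1.35%) were lower. Their median difference was 1.13 in size, or 2.19-fold, and 653 of them were less than 2-fold apart. At least 2-fold differences were found for 473 probe sets higher and 450 lower in Lok1, and at least 10-fold differences for 64 higher and 65 lower (129, 0.211% of those tested). At least 100-fold differences were found for 5 higher and 7 lower. The 3 arrays of each variety did not overlap at 1554 of the 1576, against 12161 (19.9%) of all probe sets. The calls rest on the differences of these same arrays, so the larger share follows from the choice. Non-overlap was also required of most probe sets named below and is no added support for them. Without the 6 doubted arrays the count was 1973, of which 1527 were shared, with 63 and 65 at least 10-fold apart. With the 6 compared arrays alone the count was 1990, of which 1191 were shared. Without replicate 3 of Lok1 the count was 1045, and without replicate 3 of Sonalika 1038.

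Most of these probe sets have no gene name. A name other than a hypothetical protein was given to 21 of the 1576, and to 17 of the 129, by the array annotation or by the study's annotation of its selected probe sets, and that selection was made on contrasts that contain these arrays, so the presence of its members among the calls is no independent evidence. Of 1231 probe sets with a gene symbol outside that list, 12 were higher and 15 lower in Lok1 (2.19%, against 2.58% of all). Of 228 members of the gene lists below, 128 had been selected by the study and 13 of these were called (10.2%), against 3 of the other 100. The sizes given below moved under quantile normalization, which was applied to values that the authors had already normalized and that were centred per probe set. It changed the fold of 32 of the 36 called probe sets named here by over 1.5 times, 31 of them to a larger difference. Under cyclic loess and under median centring of each array none moved that far.

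Puroindoline a was higher in Lok1, while no other member of the grain texture list passed the test. The probe set of puroindoline a (Ta.23141.1.S1_at) read 9.34, 9.38 and 9.43 in the Lok1 arrays and 2.59, 1.98 and 1.87 in the Sonalika arrays. All Lok1 arrays were far above all Sonalika arrays. The difference was 7.24 (SE 0.69, 151-fold, adjusted p = 1.65e-08). Puroindoline b (Ta.115.1.S1_at), its partner in grain softness, read 0.68, 0.82 and 0.50 in Lok1 and 0.81, 0.85 and 0.90 in Sonalika. The groups overlapped, with a difference of -0.18 (adjusted p = 0.98) and a 95% interval from -2.63 to 2.26, or from -0.50 to 0.13 when the spread was taken from the 6 arrays alone. The other members of this list of 5 were the grain softness proteins Ta.840.1.S1_at (-0.16) and Ta.69.2.S1_x_at (-0.005) and a puroindoline-like protein, Ta.14614.1.S1_at (0.43), and none of these was past the test. The puroindoline a level of C306 at 14 DAA was 1.64 below that of Sonalika (adjusted p = 0.193), and that of the arrays labelled WH291 was 7.34 above it.

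Among genes of starch synthesis and breakdown, a gene that the study named GBSS I, the enzyme that makes amylose, was lower in Lok1. Its probe set (Ta.24114.7.A1_at, gene LOC100037526, which the array annotation leaves unnamed) read -1.66, -1.51 and -2.34 in Lok1 and 7.18, 7.12 and 7.18 in Sonalika. Sonalika was therefore higher in each array, and the difference was -9.0 (SE 0.68, 512-fold, adjusted p = 1.32e-10). A second probe set of the same gene (Ta.24114.7.S1_a_at) read -0.16, 0.02 and -0.25 in Lok1 and 2.23, 2.10 and 1.32 in Sonalika. Its difference had the same direction and was smaller, at -2.01 (SE 0.33, 4.04-fold, adjusted p = 0.000238). The probe set of another GBSS I copy (Ta.2795.1.S1_a_at, LOC543395, with the synonym waxy-A) read 1.22, 0.90 and 0.43 in Lok1 and 1.23, 1.56 and 1.79 in Sonalika. The Lok1 arrays were all below the Sonalika arrays by a small margin, with a difference of -0.68 that did not pass the test (adjusted p = 0.862, 95% interval from -2.49 to 1.13, or from -1.19 to -0.17 with the spread of the 6 arrays alone, where the adjusted p was 0.171). The remaining 8 of the 11 members, for ADP-glucose pyrophosphorylase (the enzyme that supplies the glucose donor for starch) and beta-amylase (which releases maltose from starch), differed by -0.52 to 0.03, and none was past the test. The median of the list was -0.26, against 0.00 over all probe sets.

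**Figure D1:**
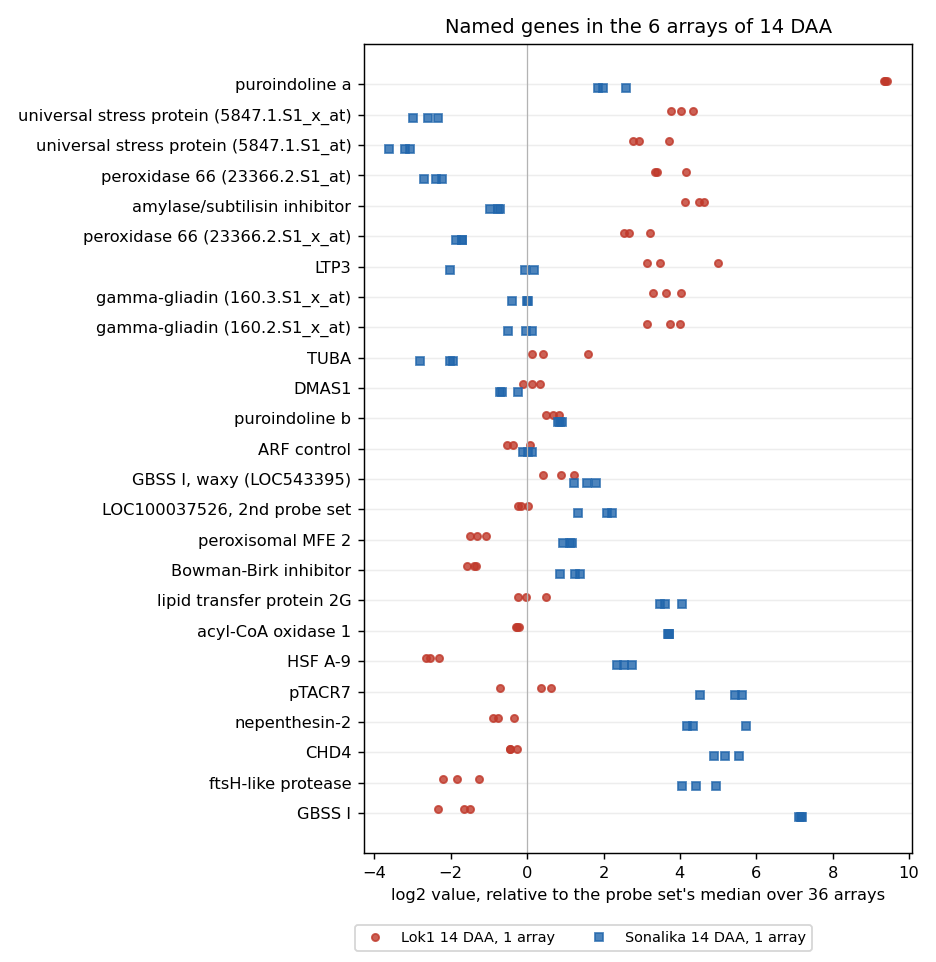
Value of each of the 6 arrays (x axis, log2, relative to the median of the probe set over 36 arrays) for 25 named probe sets (y axis), with Lok1 as circles and Sonalika as squares. Puroindoline a at the top and GBSS I at the bottom differ by 7.24 and -9.0, while puroindoline b and the ARF control overlap.

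Gluten gene lists had medians near 0, and a pair of probe sets named gamma-gliadin was higher in Lok1. No member of the HMW glutenins (6), LMW glutenins (9), alpha-gliadins (9), avenin-like proteins (15) or globulins and triticin (6) was past the test, and their list medians ranged from -0.15 to 0.05. Of 22 gamma- and omega-gliadin probe sets 2 were higher in Lok1, against 1.23% of all probe sets, and the list median was -0.08. The study had selected 19 of the 22. Ta.160.2.S1_x_at read 4.0, 3.74 and 3.14 in Lok1 and -0.51, 0.12 and -0.03 in Sonalika. The 3 Lok1 arrays were above the 3 Sonalika arrays, with a difference of 3.77 (SE 0.99, 13.6-fold, adjusted p = 0.0325). Ta.160.3.S1_x_at behaved alike (3.78, SE 0.99, adjusted p = 0.0325), and 2 further probe sets of this cluster, Ta.160.1.S1_x_at (2.01) and Ta.160.2.A1_at (0.82), were on the same side but not past the test. The study names 3 of these 4 probe sets gamma-gliadin (all but Ta.160.2.A1_at), whereas the array annotation places 3 of the 4 in LOC543213, a low molecular weight glutenin gene (Glu-D3), and the ending _x_at marks probes that also match other sequences, so which gene they report is uncertain. Both calls were lost without any of the 6 arrays, with adjusted p from 0.0694 to 0.114 for Ta.160.2.S1_x_at and from 0.0782 to 0.107 for Ta.160.3.S1_x_at. Their differences stayed between 3.58 and 4.01 and between 3.60 and 3.96. With the spread of the 6 arrays alone the limma adjusted p was 3.6e-05 and 1.2e-05.

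The test at these storage protein genes used a wide error. Over the 67 probe sets of the 6 storage protein lists the median SD within a group was 0.30 in Lok1 14 DAA and 0.16 in Sonalika 14 DAA, but 2.81 in Sonalika 7 DAA and 2.47 in Lok1 28 DAA, and the shared estimate takes in all groups. With the spread of the 6 arrays alone, no HMW glutenin, LMW glutenin, alpha-gliadin or globulin was called, 1 of 15 avenin-like probe sets was higher in Lok1, and of 22 gamma- and omega-gliadins 3 were higher and 1 was lower.

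**Figure D2:**
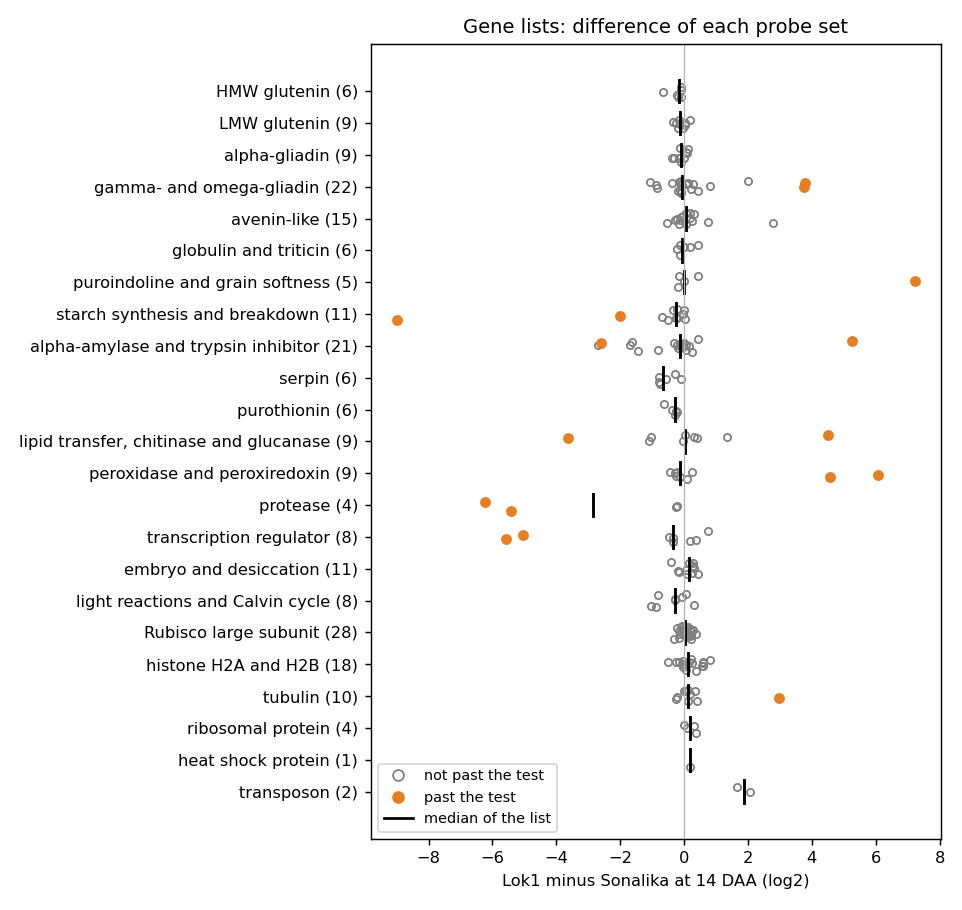
Difference between Lok1 and Sonalika at 14 DAA (x axis, log2) of each probe set in 23 gene lists (y axis, with the number of members), filled where past the test, with the list median as a bar. Most members lie near 0, and 16 of 228 are past the test (7.02%, against 2.58% of all probe sets), 8 in each direction.

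Inhibitors of hydrolytic enzymes, which protect the grain reserves, held 2 differing probe sets of 21, 1 in each direction, against 2.58% of all probe sets. All 21 had been selected by the study. With the spread of the 6 arrays alone, 1 was higher and 5 were lower in Lok1. The alpha-amylase/subtilisin inhibitor probe set Ta.10028.1.S1_at read 4.64, 4.49 and 4.13 in Lok1 and -0.98, -0.77 and -0.71 in Sonalika. It was higher in every Lok1 array, by 5.24 (SE 0.60, 37.8-fold, adjusted p = 5.09e-07), whereas another probe set with this function, Ta.20518.1.S1_at, differed by 0.24. The Bowman-Birk type trypsin inhibitor Ta.22925.1.S1_at read -1.57, -1.40 and -1.33 in Lok1 and 1.39, 1.25 and 0.87 in Sonalika. It was lower in every Lok1 array, with a difference of -2.60 (SE 0.57, 6.07-fold, adjusted p = 0.00663). The list median was -0.12. All 6 serpins, which inhibit proteases, were below 0 (median -0.65), as were all 6 purothionins, small antimicrobial proteins (median -0.28), and none of them passed the test. The serpin median was 0.07 without replicate 2 of Lok1, so that array set its sign.

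Lipid transfer proteins, which bind lipids in the cell wall and outer layers, also went both ways. LTP3 (Ta.1282.4.S1_at, LOC543095) read 3.48, 4.99 and 3.15 in Lok1 and -2.02, 0.18 and -0.06 in Sonalika. The groups did not overlap, although the replicates of each were spread (SD 0.98 and 1.21), and Lok1 was higher by 4.50 (SE 0.57, 22.7-fold, adjusted p = 3.24e-06), or by 3.81 without replicate 1 of Sonalika. Another probe set of the same gene, Ta.1282.1.S1_x_at, differed by -1.11 and was not past the test (adjusted p = 0.486), so the probe sets of this gene disagreed in sign. The non-specific lipid transfer protein 2G (Ta.22038.1.S1_at) read 0.48, -0.04 and -0.25 in Lok1 and 4.06, 3.48 and 3.60 in Sonalika. It was lower in Lok1, with a difference of -3.65 (SE 0.95, 12.5-fold, adjusted p = 0.0309), a call that was lost without any of the 6 arrays (adjusted p from 0.0561 to 0.124), although the difference stayed between -3.86 and -3.47. With the spread of the 6 arrays alone its adjusted p was 2.43e-05.

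Among genes of oxidative metabolism, a peroxidase (Ta.23366.2) was higher in Lok1. Peroxidases of this class oxidise phenolic compounds with hydrogen peroxide. The probe set Ta.23366.2.S1_at read 3.36, 3.40 and 4.16 in Lok1 and -2.69, -2.24 and -2.38 in Sonalika. The difference was 6.07 (SE 0.45, 67.3-fold, adjusted p = 1.13e-10), and the _x_at probe set of the same transcript gave 4.57 (SE 0.44, adjusted p = 2.01e-08). The other 7 peroxidase and peroxiredoxin probe sets differed by -0.45 to 0.25 and were not past the test. Probe sets of a universal stress protein A-like protein were higher in Lok1 as well. Ta.5847.1.S1_x_at read 4.04, 3.75 and 4.33 in Lok1 and -2.33, -2.60 and -2.99 in Sonalika. The groups were wide apart, by 6.68 (SE 0.95, 103-fold, adjusted p = 2.71e-05), and its companion Ta.5847.1.S1_at gave 6.43 (SE 0.93).

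Both named enzymes of peroxisomal fatty acid breakdown were lower in Lok1. Acyl-coenzyme A oxidase 1, which catalyses the opening step of beta-oxidation (Ta.4957.1.S1_at), read -0.21, -0.28 and -0.26 in Lok1 and 3.72, 3.69 and 3.71 in Sonalika. The replicates of each variety were tight, and the difference was -3.96 (SE 0.52, 15.6-fold, adjusted p = 7e-06). The peroxisomal multifunctional enzyme type 2, which acts in the steps that follow (Ta.12764.1.A1_at), read -1.49, -1.08 and -1.31 in Lok1 and 1.18, 0.93 and 1.11 in Sonalika. The difference was -2.37 (SE 0.32, 5.17-fold, adjusted p = 1.28e-05). No list of this pathway was set up, and the 2 genes are named because of the size of their differences.

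Among proteases, which cut other proteins, those past the test were lower in Lok1. Of 4 proteases 2 were lower, against 1.35% of all probe sets, and the list median was -2.84, but all 4 had been selected by the study. The ftsH-like protein, a membrane-bound protease of the chloroplast (Ta.27445.1.S1_at), read -2.2, -1.27 and -1.85 in Lok1 and 4.06, 4.42 and 4.95 in Sonalika. Every Sonalika array was higher, and the difference was -6.25 (SE 0.59, 76.0-fold, adjusted p = 1.47e-08). The aspartic proteinase nepenthesin-2 (Ta.792.1.S1_at) read -0.89, -0.34 and -0.77 in Lok1 and 5.74, 4.19 and 4.34 in Sonalika. It differed by -5.42 (SE 0.51, 43.0-fold, adjusted p = 1.26e-08). The aspartic proteinases nepenthesin-1 (-0.25) and oryzasin-1 (-0.22) were not past the test.

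Of 8 transcription regulators, all of them selected by the study, 2 were lower in Lok1, against 1.35% of all probe sets. The list median was -0.36. CHD4, a helicase of the chromodomain family that moves nucleosomes in animals (Ta.6984.1.A1_at), read -0.44, -0.27 and -0.44 in Lok1 and 5.56, 5.17 and 4.89 in Sonalika. The difference was -5.59 (SE 0.56, 48.0-fold, adjusted p = 4.38e-08). Heat stress transcription factor A-9, whose sunflower and Arabidopsis counterparts act in seed maturation (Ta.5129.2.A1_a_at), read -2.64, -2.54 and -2.30 in Lok1 and 2.76, 2.35 and 2.52 in Sonalika. Here too the groups were wide apart, by -5.04 (SE 0.18, 32.9-fold, adjusted p = 7.33e-18). The NAC factors, GATA transcription factor 17 and TaCBF11 differed by -0.46 to 0.74 and were not past the test. The study's pTACR7 (Ta.14489.1.S1_at) was also lower in Lok1, with a difference of -5.09 (SE 0.42, 34.2-fold, adjusted p = 9.9e-10).

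Of the markers of the tissues that a caryopsis holds, no member was past the test among 11 embryo and desiccation probe sets (Em, Rab, LEA, COR410 and oleosin, median 0.15), 8 of the light reactions and Calvin cycle (median -0.29), 28 of the Rubisco large subunit (median 0.04) or 18 of histones H2A and H2B (median 0.13). Nor was any past the test among the 4 ribosomal protein probe sets (median 0.19), the single heat shock protein (0.17) and the 2 probe sets of a retrotransposon polyprotein (1.65 and 2.06), though both of the last were past it with the spread of the 6 arrays alone. The probe sets taken as endosperm markers by their names did not all go alike. The alpha-gliadin median was 0.86 in Lok1 and 0.96 in Sonalika at 14 DAA, and in Sonalika it was -7.28 at 7 DAA and 0.91 at 28 DAA. The HMW and LMW glutenin lists (medians -0.15 and -0.12) and puroindoline b (-0.18) also had no call. The gene that the study named GBSS I differed by -9.0 and -2.01 at its probe sets Ta.24114.7.A1_at and Ta.24114.7.S1_a_at. The array annotation leaves this gene unnamed, and the waxy-A copy (Ta.2795.1.S1_a_at, -0.68) had no call. The probe sets Ta.160.2.S1_x_at and Ta.160.3.S1_x_at, named gamma-gliadin, differed by 3.77 and 3.78.

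Of 10 tubulin probe sets 1 was higher in Lok1, against 1.23% of all probe sets. This alpha-tubulin (TUBA, Ta.723.1.S1_at), a subunit of the microtubules, read 0.41, 1.58 and 0.12 in Lok1 and -2.81, -2.01 and -1.94 in Sonalika. The groups did not overlap, and the difference was 2.96 (SE 0.33, 7.78-fold, adjusted p = 4.37e-07), while the other TUBA probe set, Ta.812.1.S1_x_at, differed by 0.17. DMAS1 (Ta.5335.3.S1_a_at), deoxymugineic acid synthase of the iron uptake pathway of grasses, was higher in Lok1 by 0.65 (SE 0.16, 1.57-fold, adjusted p = 0.0152), and it was not past the test with the 6 arrays alone (adjusted p = 0.099). The ADP ribosylation factor control (ARF, Ta.2291.1.S1_x_at) read -0.36, 0.07 and -0.54 in Lok1 and -0.10, 0.13 and 0.03 in Sonalika. Its groups overlapped, with a difference of -0.30 (adjusted p = 0.467).

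The largest differences among the calls were at probe sets whose function is little known. Ta.2025.1.S1_at, which the study lists as a hypothetical protein and elsewhere calls an oxidoreductase of the Fe(II) oxygenase family, read -0.14, -0.18 and -0.14 in Lok1 and 11.99, 12.20 and 12.05 in Sonalika. It was lower in Lok1, with a difference of -12.23 (SE 0.66, 4810-fold, adjusted p = 6.9e-14). At the other end Ta.6179.1.S1_at, which has no name, read 8.21, 7.96 and 8.44 in Lok1 and 0.28, -0.26 and -0.40 in Sonalika. It was higher in Lok1 by 8.33 (SE 0.21, 323-fold, adjusted p = 1.51e-21). Of the 10 probe sets with the largest excess in Sonalika, 7 more had no name or only that of a hypothetical protein (Ta.9397.1.S1_at, Ta.10976.1.S1_at, Ta.5833.1.S1_at, Ta.1944.1.S1_at, Ta.14446.1.A1_at, Ta.28347.1.S1_s_at and Ta.22966.3.S1_at), with differences from -7.78 to -6.28. Of the 10 with the largest excess in Lok1, 5 more were of this kind (Ta.28744.1.S1_at, Ta.5257.2.S1_x_at, Ta.24954.1.S1_at, Ta.24218.1.S1_at and Ta.5844.1.S1_at), with differences from 5.83 to 6.84.

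Many of the strongly differing probe sets were at the bottom of their range in the lower variety. In 97 of the 129 probe sets that were at least 10-fold apart, the lower group lay within 1 log2 unit of the lowest of all 36 arrays, and in 50 the higher group lay within 1 unit of the highest. The choice of probe sets by a large difference raises both counts, and they were not set against all probe sets. The calls came from 1487 transcripts by the array's own numbering. Of 312 called probe sets with another probe set of the same transcript on the array, 177 had one that was called in the same direction and 135 had none that was called. None had others called only in the opposite direction. For those at least 10-fold apart these numbers were 19 and 10 of 29. By type of probe set, 2.41% of the 48453 unique (_at), 3.91% of the _a_at, 3.38% of the _s_at and 2.81% of the _x_at probe sets were called.

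The level of C306, the other good chapatti variety, was not always that of Lok1. At 14 DAA its mean was nearer to Lok1 at 78 of the 129 and nearer to Sonalika at 51. The C306 minus Sonalika difference, which shares the Sonalika arrays, was -9.10 at GBSS I and -4.78 at heat stress transcription factor A-9, against -9.0 and -5.04 for Lok1. It was 6.04 at the alpha-amylase/subtilisin inhibitor and 5.20 at the peroxidase (Ta.23366.2.S1_at), against 5.24 and 6.07. At puroindoline a, nepenthesin-2 and lipid transfer protein 2G it was -1.64, 0.26 and 0.17, against 7.24, -5.42 and -3.65. The Bowman-Birk inhibitor was higher than Sonalika by 2.11 in C306 and lower in Lok1. Differences between C306 and Lok1 were not tested here, and 1 of the 3 C306 14 DAA arrays lay at 0.591 on the way from 7 to 14 DAA against 1.14 and 1.26 for the others.

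To see how far the differences lasted, the same varieties were compared at 28 DAA on 6 separate arrays. There 5719 probe sets (9.35%) were past the test. By the study's own listing the Lok1 28 DAA samples had the lowest RNA integrity of the series, and its effect on the 28 DAA counts was not tested. Of the 1576 called at 14 DAA, 1356 (86.0%) had the same sign at 28 DAA, against 57.7% of all probe sets, 757 (48.0%) were also past the test with the same sign, and 12 were past it with the opposite sign. These 757 were 13.2% of the calls of 28 DAA. Of the 129 at least 10-fold apart, 124 kept the sign and 106 (82.2%) were past the test again, none with the opposite sign, and for 72 the 2 differences lay within 1 log2 unit. The median difference of the 65 lower in Lok1 was -4.46 at 14 DAA and -3.95 at 28 DAA, and that of the 64 higher was 4.30 and 3.38. Over all calls the medians were smaller at 28 DAA, at -1.07 and -0.68 for those lower in Lok1 and at 1.21 and 0.58 for those higher. All these sets were chosen by their 14 DAA differences, and that choice by itself favours smaller medians at 28 DAA. The medians therefore do not tell whether the varieties drew closer, and at 28 DAA itself 383 probe sets were called at least 10-fold apart. Puroindoline a differed by 7.67 at 28 DAA, GBSS I by -8.01, the universal stress protein (Ta.5847.1.S1_x_at) by 7.68, the peroxidase (Ta.23366.2.S1_at) by 4.60, and heat stress transcription factor A-9 by -4.55.

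**Figure D3:**
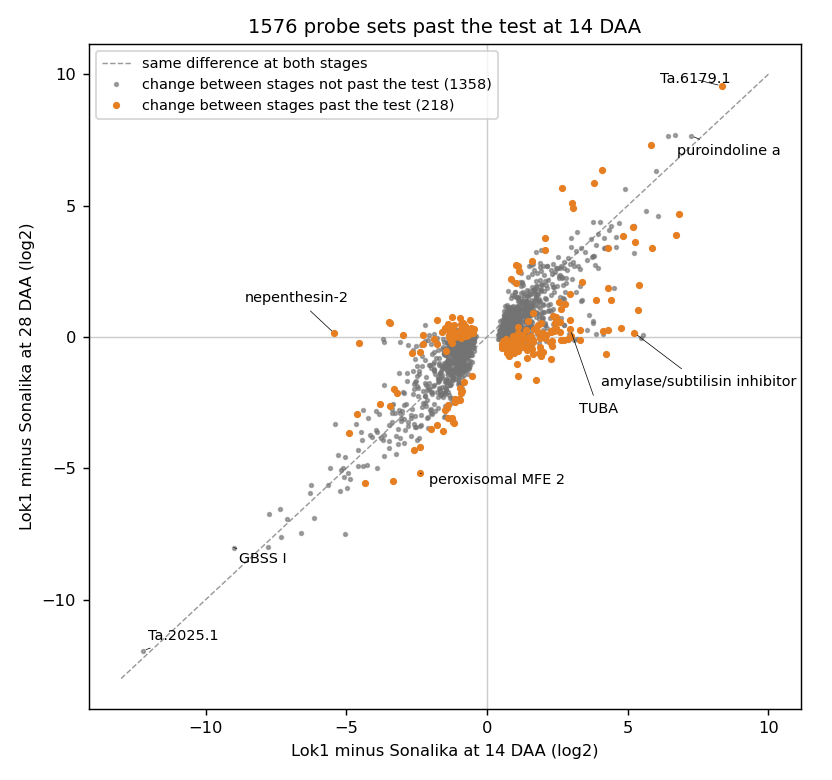
Lok1 minus Sonalika at 14 DAA (x axis, log2) against the same difference at 28 DAA (y axis, log2) for the 1576 probe sets past the test at 14 DAA; the dashed line marks equal differences. For 1183 the differences lie within 1 log2 unit of each other, and 218 in orange, among them nepenthesin-2 and the alpha-amylase/subtilisin inhibitor near 0 at 28 DAA, changed between the stages.

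The change of the difference from 14 to 28 DAA was tested directly, and its values here are the difference at 14 DAA minus that at 28 DAA. It was past the test at 1280 probe sets (2.09%), among them 218 (13.8%) of the 1576 and 32 (24.8%) of the 129, a share that the choice of probe sets by their 14 DAA values raises. The alpha-amylase/subtilisin inhibitor difference was 0.15 at 28 DAA, where Lok1 had come down to the level of Sonalika (change 5.09, SE 0.84, adjusted p = 0.000602). Nepenthesin-2 differed by 0.14 at 28 DAA, where Sonalika had come down to the level of Lok1 (change -5.56, SE 0.72, adjusted p = 3.08e-05). TUBA differed by 0.29 at 28 DAA, as Sonalika, low at 14 DAA alone, was back at the level of Lok1 (change 2.67, SE 0.47, adjusted p = 0.00126). The difference of the peroxisomal multifunctional enzyme widened to -5.19 (change 2.82, SE 0.46, adjusted p = 0.000466). For the gamma-gliadin probe set Ta.160.2.S1_x_at the difference was 0.53 at 28 DAA, but its change was not past the test (3.24, SE 1.40, adjusted p = 0.303). The count of changes past the test was 747 without replicate 2 of Lok1 28 DAA, 769 without replicate 1 of Sonalika 28 DAA, 814 without replicate 2 of Sonalika 14 DAA and 2031 without replicate 1 of Lok1 28 DAA.

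**Figure D4:**
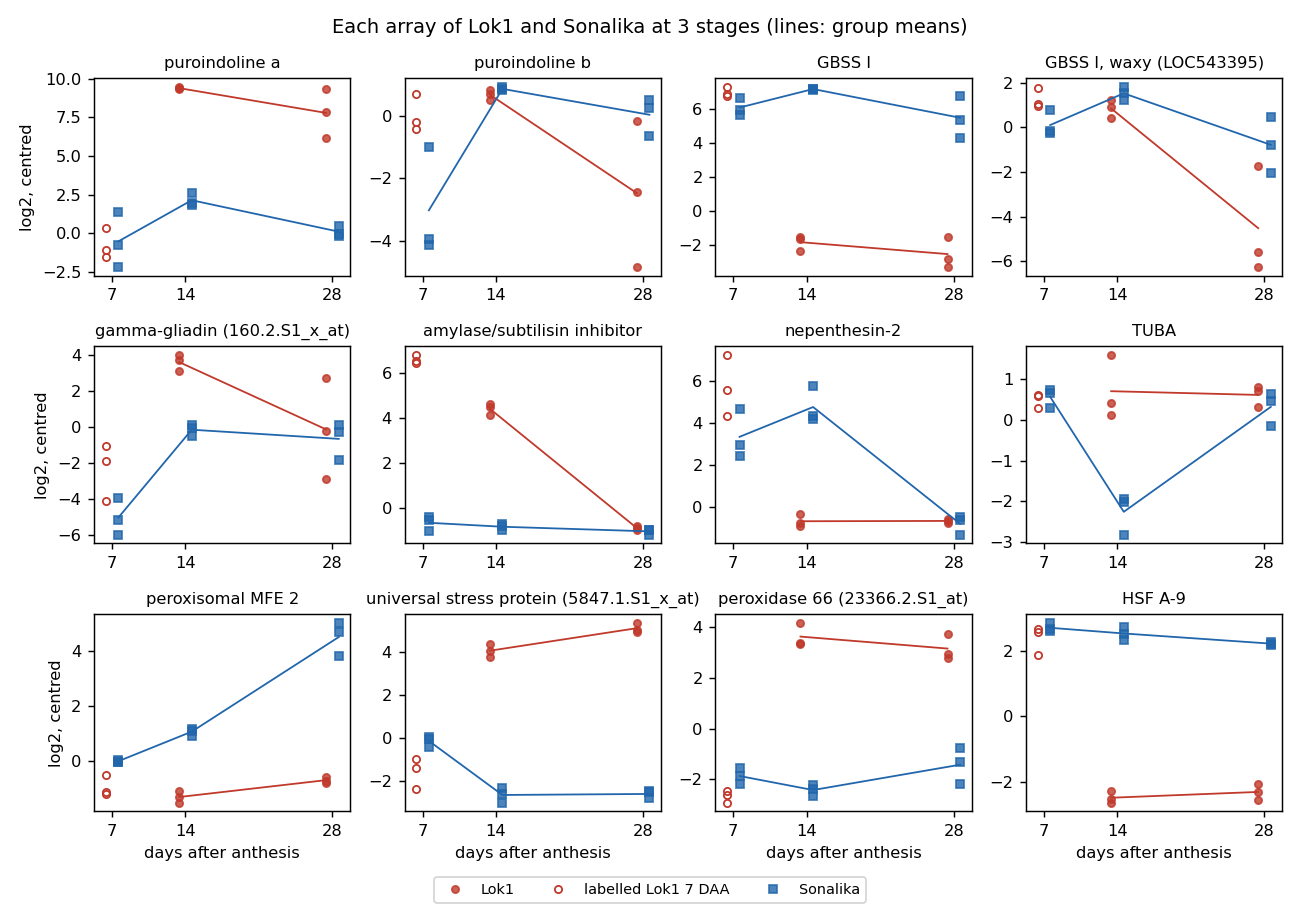
Value of each array (y axis, log2, centred on the median of the probe set) at 7, 14 and 28 DAA (x axis) for 12 probe sets in Lok1 (circles) and Sonalika (squares), with lines through group means and open circles for the doubted arrays labelled Lok1 7 DAA. The alpha-amylase/subtilisin inhibitor, nepenthesin-2 and TUBA differ at 14 DAA and meet at 28 DAA, while puroindoline a, GBSS I and heat stress transcription factor A-9 stay apart.

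At 7 DAA the arrays labelled Lok1 give values only, since their label is in doubt. There puroindoline a differed from Sonalika by -0.23, GBSS I by 0.89, heat stress transcription factor A-9 by -0.33 and the peroxidase (Ta.23366.2.S1_at) by -0.80. Some differences had the sign of 14 DAA and a similar size, as at CHD4 (-6.34), acyl-coenzyme A oxidase 1 (-4.52), the alpha-amylase/subtilisin inhibitor (7.24) and Ta.6179.1.S1_at (6.75). Others had the opposite sign, as at nepenthesin-2 (2.36), lipid transfer protein 2G (4.27), the Bowman-Birk inhibitor (3.37) and the universal stress protein (-1.44 at Ta.5847.1.S1_x_at). Whether these values belong to Lok1 cannot be told from the labels.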

How the data were processed

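The deposited values are log2 expression that the authors obtained by robust multi-array averaging (RMA) of 36 arrays, 3 biological replicates of 4 varieties at 3 stages, centred per probe set on its median over all arrays (the largest absolute median was 4.8e-07). They were used as deposited. With limma 3.58.1 in R 4.3.3, a model with 12 groups of variety and stage was fitted over all 36 arrays, and Lok1 14 DAA minus Sonalika 14 DAA was tested at 61179 probe sets with Benjamini-Hochberg adjustment at 0.05; the methods of the study state no test for a pair of varieties. The number of arrays limits the precision (median SE 0.183). The p-values use the spread between field replicates pooled over all 12 groups, not that of Lok1 and Sonalika at 14 DAA alone. No arrays held identical values.

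Gene names came from the study's supplementary annotation of its selected probe sets, the array annotation (1273 probe sets with 1 symbol, 0 with several, 59906 with none) and RefSeq synonyms for wheat (1272 matched). Named were the 10 largest differences in each direction whose arrays do not overlap, up to 12 in each direction with a gene name (11 higher and 10 lower in Lok1), up to 4 called members of each list, and puroindoline a and b, GBSS I and the ARF control. The comparison and lists were chosen with earlier results of these data known.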

Additional observations from a re-analysis of the deposited data

Results flagged for a closer look

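The change of the Lok1 minus Sonalika difference between 14 and 28 DAA, tested as an interaction in the limma model over all probe sets, was past the threshold for 9 of the named probe sets, and the values below are the difference at 14 DAA minus that at 28 DAA on the log2 scale. It was -5.56 for nepenthesin-2 (Ta.792.1.S1_at), 5.09 for the alpha-amylase/subtilisin inhibitor (Ta.10028.1.S1_at), 2.82 for the peroxisomal multifunctional enzyme (Ta.12764.1.A1_at) and 2.67 for TUBA (Ta.723.1.S1_at). Among probe sets without a name or named a hypothetical protein it was 2.83 for Ta.5257.2.S1_x_at, 2.50 for Ta.24218.1.S1_at, 2.17 for Ta.28744.1.S1_at, -1.49 for Ta.5844.1.S1_at and -1.22 for Ta.6179.1.S1_at. The last 2 and Ta.28744.1.S1_at were past the threshold no longer when some single arrays were left out, and these 3 and Ta.5257.2.S1_x_at when only the 12 arrays of both varieties at both stages were fitted (adjusted p from 0.0502 to 0.0815).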

How the results depend on the processing

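The count of 1576 (751 higher, 825 lower in Lok1) stayed within 1.5 times under the methods' filter at the 20th percentile, the 6 arrays alone, the 12 arrays of 14 DAA, the 30 arrays without doubted labels, cyclic loess, median centring and the unmoderated t (1314 to 1990). The members were less stable than the count. In these settings the calls shared with the 1576 ranged from 1030 (12 arrays of 14 DAA) and 1191 (6 arrays alone) to 1558 (median centring). Quantile normalization of the already normalized and centred values gave 4466 (2180 and 2286), with 395 at least 10-fold apart (221 and 174). Array weights gave 2865 (1383 and 1482). The cause was not tested. Leaving out single arrays gave 1038 to 1379 (497 to 690 higher, 540 to 689 lower), the lowest without replicate 3 of Sonalika, and 121 to 132 at least 10-fold apart (58 to 69 higher, 60 to 65 lower). For the change from 14 to 28 DAA it gave 747 to 2031, and the 12 arrays of both varieties at both stages alone gave 689. The share of calls higher in Lok1 was 47.2 to 50.0% throughout. Of 40 named probe sets, no called one changed sign in these settings, and calls were lost in some for Ta.160.2.S1_x_at, Ta.160.3.S1_x_at, lipid transfer protein 2G and DMAS1. Under quantile normalization the fold of 32 of the 36 called ones moved by over 1.5 times, and the log2 difference became 10.27 at the peroxidase (Ta.23366.2.S1_at), -12.23 at GBSS I, 6.05 at TUBA, -8.80 at heat stress transcription factor A-9, 11.16 at Ta.5847.1.S1_x_at and -10.20 at Ta.2025.1.S1_at. The methods' filter removed 5 of the 40 from the test.

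Replicate numbers did not pair the samples, as the deviations of same-numbered Lok1 and Sonalika arrays correlated at -0.17, -0.08 and -0.22. With a replicate block the count was 1569 (742 and 827), with 130 at least 10-fold apart, and 1222 for the change from 14 to 28 DAA, and it moved no call of a named probe set.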
